A study of Mus musculus with 6 samples.

Results

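The 5 genes described here are the mouse Period genes Per1, Per2 and Per3 and the cryptochrome genes Cry1 and Cry2, taken by gene symbol from the deposited tables of whole-eye RNA. All 5 were among the 22692 symbols of the tables, and all 5 were among the 13490 genes tested. The samples were whole eyes of female C57BL/6J mice (an inbred strain), 4 weeks old, collected at 1.5 h or at 9.0 h after light onset. Each time had 3 sequencing libraries, and each library was made from the pooled RNA of 5 mice. No genetic change or drug is given for either group, and the time of day is the difference that the labels give between them. Nothing in the labels shows that separate animals went into each pool, and the p-values therefore reflect only the library-to-library spread, part of which may be technical.

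The PER and CRY proteins are the repressors of the mammalian circadian clock. The transcription factors CLOCK (or NPAS2) and ARNTL (BMAL1) bind E-box sequences and switch on the Per and Cry genes, and PER and CRY proteins enter the nucleus together and shut that activity off until they are degraded. Per1 and Per2 also respond to light through cAMP response elements. The D-box factors DBP, TEF, HLF and NFIL3 and the nuclear receptors of the REV-ERB and ROR families tune the timing of the members. Cry1 is a target of these receptors. The retina and several other tissues of the eye hold clocks of their own, and a whole eye mixes retina, pigment epithelium, lens, cornea, sclera and attached muscle. In such a mixture, fewer cells of a type and less RNA per cell cannot be told apart.

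Values are RPKM, reads scaled by the length of the gene model and the total reads of the library, so levels of different genes can be set side by side. Depth was uneven, at about 28930000, 12680000 and 13000000 reads in the 3 libraries at 1.5 h, by replicate number, and 31800000, 29800000 and 24030000 at 9.0 h, as read from the step of the low values. Library 1 of the 1.5 h group stood apart in its summed RPKM, at 393433 over all genes against 484249 to 546836 in the other 5 libraries. Its 6 lens genes summed to 61639 RPKM against 82635 to 98519, which is 15.7% of its sum against 16.3% to 18.2%. Library 3 of the 1.5 h group went against its female label, with 4 Y-linked genes summing to 1.59 RPKM and listed at 0 in the other 5, and its 5 blood genes summed to 374.7 RPKM against 43.7 to 120.2 elsewhere. Of those blood genes, Hbb-b1, Hba-a1 and Hba-a2 were listed at 0 in every library. Results are therefore also given without each of these 2 libraries.

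The stretches before the transcription start are shown because clock elements known for these genes can lie there. Windows of the 250 bases before the start came from RefSeq (build GRCm38.p6, which is not the build of the deposited values), and 4 of the 5 members, all but Per2, had one. Capitals mark matches, on either strand, to the E-box CACGTG, to the related element known as E-box-like, whose letters are CACGTT, to the D-box TTATGTAA or TTACGTAA and the full cAMP response element TGACGTCA.
Per1, first start, chr11:69098699-69098948, plus strand: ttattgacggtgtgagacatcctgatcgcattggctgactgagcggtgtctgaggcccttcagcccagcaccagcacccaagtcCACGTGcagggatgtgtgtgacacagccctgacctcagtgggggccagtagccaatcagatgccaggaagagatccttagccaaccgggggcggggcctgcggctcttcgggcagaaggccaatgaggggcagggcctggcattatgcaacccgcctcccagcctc
Per1, second start, chr11:69099902-69100151, plus strand: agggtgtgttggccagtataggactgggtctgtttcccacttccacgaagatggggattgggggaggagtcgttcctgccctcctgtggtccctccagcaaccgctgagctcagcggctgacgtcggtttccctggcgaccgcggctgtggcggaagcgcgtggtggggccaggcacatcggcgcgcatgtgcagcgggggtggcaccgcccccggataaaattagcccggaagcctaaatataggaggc
Per3, chr4:151044666-151044915, minus strand: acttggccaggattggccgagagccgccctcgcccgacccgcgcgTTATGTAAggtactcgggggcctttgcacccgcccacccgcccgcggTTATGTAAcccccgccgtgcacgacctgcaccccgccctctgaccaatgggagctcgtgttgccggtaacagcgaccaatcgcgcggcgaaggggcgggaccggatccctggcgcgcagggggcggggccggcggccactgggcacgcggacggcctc
Cry1, chr10:85185055-85185304, minus strand: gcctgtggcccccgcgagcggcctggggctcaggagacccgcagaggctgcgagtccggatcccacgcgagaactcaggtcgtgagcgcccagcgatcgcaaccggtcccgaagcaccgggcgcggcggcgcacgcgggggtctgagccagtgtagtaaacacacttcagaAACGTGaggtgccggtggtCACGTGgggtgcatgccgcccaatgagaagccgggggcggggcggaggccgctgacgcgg
Cry2, chr2:92434070-92434319, minus strand: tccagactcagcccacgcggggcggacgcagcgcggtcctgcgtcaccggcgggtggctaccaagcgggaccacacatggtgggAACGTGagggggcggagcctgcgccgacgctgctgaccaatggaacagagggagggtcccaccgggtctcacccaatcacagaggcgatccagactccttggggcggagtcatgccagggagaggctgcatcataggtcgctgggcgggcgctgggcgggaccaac

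The first Per1 window held 1 E-box, beginning at position −166 relative to the start, and the second held none of the marked elements. Cry1 held an E-box at −60 and an E-box-like element at −79. Cry2 held 1 E-box-like element, at −166. Per3 held 2 copies of the D-box TTATGTAA, at −205 and −158, and no E-box. Counted over 300 bases, from 250 before to 50 after the start, the E-box occurred in 7.15% of 32817 RefSeq windows, the E-box-like element in 4.69%, TTATGTAA in 0.935% and TTACGTAA in 0.119%. A full TGACGTCA element, present in 1.79% of windows, matched in no member's window, and its shorter form TGACG, present in 20.8%, matched in both Per1 windows, Cry1 and Cry2. A match describes the letters only.

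At 9.0 h the log-scale means of Per1, Per2, Per3 and Cry2 were 1.41, 1.38, 1.31 and 1.31 times those at 1.5 h, and that of Cry1 was 0.998 times. None of the 5 passed the test across all genes, limma's moderated test on log2(RPKM + 0.1) two-sided, at 0.05 after Benjamini-Hochberg adjustment. Over all 13490 genes, 0.148% were called higher at 9.0 h and 0.0741% lower, so calls were rare everywhere. At an unadjusted limma p of 0.05, Per1, Per2 and Cry2 passed, all higher at 9.0 h, as did 6.47% of all genes in that direction and 4.58% in the other. Levels at the 2 times did not overlap for Per1 and Cry2, both higher at 9.0 h, a pattern that 9.78% of all genes shared.

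**Figure D1:**
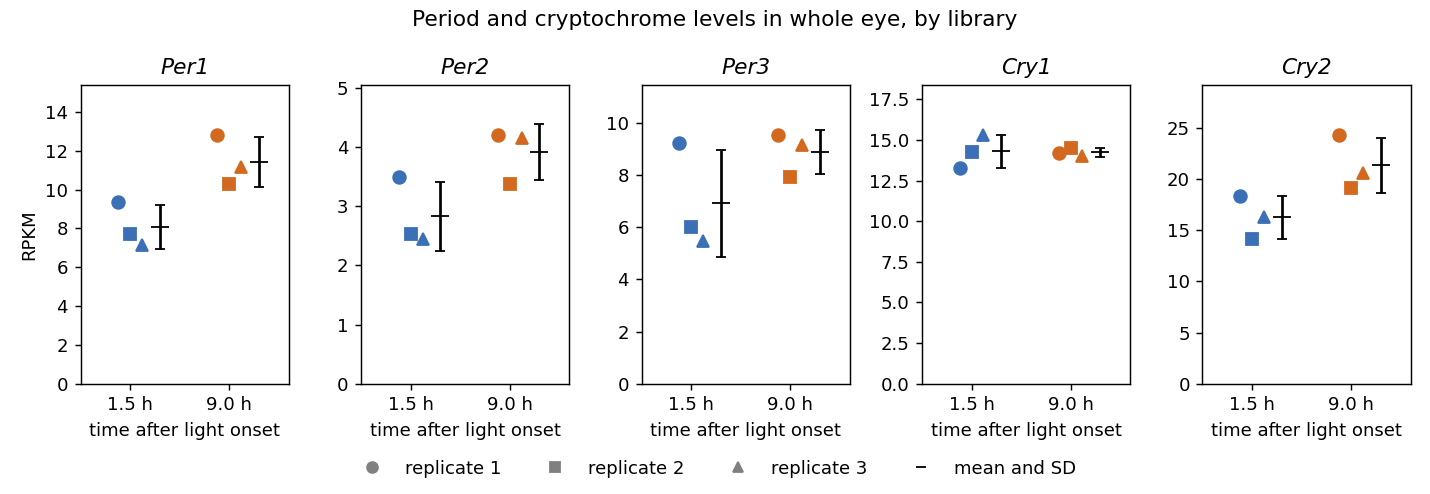
RPKM of each member (vertical axes, each from 0) in the 3 libraries at 1.5 h (blue) and at 9.0 h (orange), with marker shapes for the replicates and the mean and SD beside them in black. The levels of Per1 and Cry2 do not overlap between the times, and those of Per2 and Per3 overlap through 1.5 h replicate 1.

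Per1, the Period gene known for fast induction by light, measured 9.34, 7.73 and 7.14 RPKM in the 1.5 h libraries, in replicate order, and 12.8, 10.3 and 11.2 RPKM at 9.0 h. Every 9.0 h library was thus above every 1.5 h library. The means were 8.07 ± 1.14 and 11.4 ± 1.29 RPKM (SD, n = 3 each). The log2 fold change was 0.50 ± 0.16 (SE), with a 95% interval from 0.15 to 0.85 and limma adjusted p = 0.271.

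Per2, whose loss disrupts rhythms in mice and whose protein carries the phosphorylation sites best known from inherited human sleep timing, was the least abundant member. It had 3.50, 2.53 and 2.45 RPKM at 1.5 h and 4.21, 3.38 and 4.16 RPKM at 9.0 h. The single overlap was between 1.5 h replicate 1 and 9.0 h replicate 2. The means were 2.83 ± 0.586 and 3.92 ± 0.466 RPKM (SD, n = 3 each), a log2 fold change of 0.47 ± 0.19 (95% interval 0.06 to 0.88, limma adjusted p = 0.387). Its level rested on the fewest reads of the 5: about 187 and 186 in 1.5 h replicates 2 and 3, for a transcript of 5833 nt, against 584 to 781 in the other libraries. Counting error was then 7.32% and 7.33% in those 2 libraries, or 0.10 on the log2 scale, smaller than the SD of 0.28 between the 1.5 h libraries.

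Per3, the Period gene that mice can lose with the mildest effect on rhythms, spread most among the 1.5 h libraries on the log2 scale (SD 0.40). It had 9.25, 6.02 and 5.48 RPKM there and 9.56, 7.93 and 9.17 RPKM at 9.0 h. In 1.5 h replicate 1 it lay above 2 of the 9.0 h libraries, and the other 1.5 h libraries lay below all of them. The means were 6.92 ± 2.04 and 8.89 ± 0.854 RPKM (SD, n = 3 each), with a log2 fold change of 0.39 ± 0.20 (95% interval −0.05 to 0.83, limma adjusted p = 0.515).

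Cry1, a strong repressor of CLOCK and ARNTL that is expressed late relative to the Period genes in many tissues, did not move in either direction beyond its error. It had 13.3, 14.3 and 15.3 RPKM at 1.5 h and 14.2, 14.5 and 14.0 RPKM at 9.0 h, so all 3 later libraries lay inside the range of the earlier ones. The means were 14.3 ± 1.02 and 14.2 ± 0.266 RPKM (SD, n = 3 each). The log2 fold change was −0.003 ± 0.13 (SE), and its 95% interval, −0.29 to 0.28, still includes moderate changes in both directions (limma adjusted p = 0.996).

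Cry2, the second vertebrate-type cryptochrome repressor, was the most abundant member. It had 18.4, 14.2 and 16.3 RPKM at 1.5 h and 24.3, 19.1 and 20.6 RPKM at 9.0 h. The times did not overlap, although 1.5 h replicate 1 came within 0.784 RPKM of the lowest 9.0 h library. The means were 16.3 ± 2.09 and 21.4 ± 2.68 RPKM (SD, n = 3 each), a log2 fold change of 0.39 ± 0.15 (95% interval 0.06 to 0.73, limma adjusted p = 0.378). The annotation places a transcript of the opposite strand, D930015M05Rik, over 295 of the 6320 exon bases of Cry2. The strand setting of the counting is not given, so reads there cannot be assigned. The level of D930015M05Rik was 0.608 RPKM in 1.5 h replicate 1 and 0.0644 to 0.167 in the other 5 libraries.

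The order of levels was nearly the same at both times. In 5 of the 6 libraries it ran Cry2, Cry1, Per1, Per3, Per2, and in 1.5 h replicate 2 Cry1 and Cry2 changed places by 0.106 RPKM. At 1.5 h the ranges of the neighbours Cry2 and Cry1 overlapped, as did those of Per1 and Per3. At 9.0 h no neighbours overlapped. Cry2 exceeded 67.2% to 81.5% of the tested genes in the same library, Cry1 66.2% to 70.9%, Per1 46.4% to 64.3%, Per3 37.4% to 54.4% and Per2 14.9% to 29.9%.

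Within the Period family the shares were steady. Per2 made up between 15.5% and 17.0% of the summed Period RPKM in all 6 libraries, Per1 between 42.3% and 48.2% and Per3 between 35.9% and 41.9%. The lowest share of Per1 and the highest of Per3 were in 1.5 h replicate 1, and the highest of Per1 and the lowest of Per3 in 9.0 h replicate 1. The sum of the 3 Period genes was 22.1, 16.3 and 15.1 RPKM at 1.5 h and 26.6, 21.6 and 24.5 RPKM at 9.0 h, so it overlapped through replicate 1. The sum of both cryptochromes was 31.6, 28.5 and 31.6 RPKM at 1.5 h and 38.5, 33.7 and 34.6 RPKM at 9.0 h. Cry2 made up 58.0%, 49.8% and 51.6% of that sum at 1.5 h and 63.2%, 56.9% and 59.6% at 9.0 h.

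In a ratio of 2 members within a library a scale factor cancels, apart from the 0.1 added to each value, and all 10 pairs were compared between the times. The 3 ratios among Period genes shifted by 0.03 to 0.11 on the log2 scale and overlapped. The 3 ratios of a Period gene to Cry2 shifted by 0.11 (Per1), 0.08 (Per2) and −0.001 (Per3), again with overlap. The 4 ratios that involve Cry1 shifted most: Per1 over Cry1 by 0.50, Per2 over Cry1 by 0.47, Per3 over Cry1 by 0.39 and Cry1 over Cry2 by −0.39. Each shift is the difference between the log2 fold changes of its 2 members, so these 4 are not separate observations of Cry1. Of the 10 pairs, Per1 over Cry1 was the one whose times did not overlap, at −0.50, −0.88 and −1.09 at 1.5 h and −0.15, −0.49 and −0.32 at 9.0 h, where the margin was 0.01. Its exact two-sided permutation p was 0.1, the smallest that 3 libraries against 3 can give. Adjusted over the 10 pairs the exact permutation p values were 0.667 to 1. With 0.1 as the smallest possible p, no pair could pass at 0.05. The test therefore cannot decide whether members differed in their time change.

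**Figure D2:**
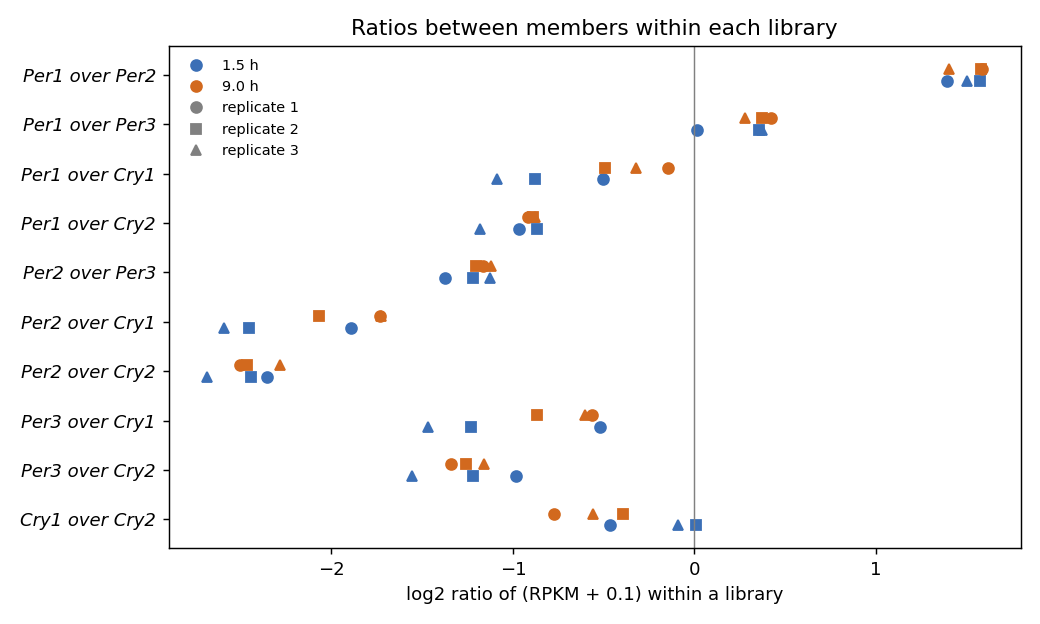
Log2 ratio of (RPKM + 0.1) between 2 members within each library (horizontal axis) for the 10 pairs, at 1.5 h (blue) and 9.0 h (orange), with marker shapes for the replicates. Of the 10 pairs, Per1 over Cry1 alone does not overlap between the times, by 0.01, and the 4 pairs with Cry1 have the largest differences of means.

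Leaving out 1.5 h replicate 1 changed the call of the time difference for 4 members. There Per1, Per2, Per3 and Cry2 had their highest 1.5 h levels and Cry1 its lowest. Without it the log2 fold changes were 0.61 for Per1, 0.63 for Per2, 0.62 for Per3, 0.48 for Cry2 and −0.05 for Cry1. The limma adjusted p values were then 0.0056, 0.0143, 0.00587, 0.0312 and 0.873, so that Per1, Per2, Per3 and Cry2 passed. In that fit 1245 genes passed against 30 with all libraries. Its median prior degrees of freedom were infinite, against 6.54 with all libraries. Limma thus took the spread of most genes from the trend over all genes, not from their own libraries, and these passes depend on that. With GC and length trends also removed, Per2 and Per3 passed without that library (limma adjusted p = 0.0471 and 0.027) and Per1 and Cry2 did not (0.0999 and 0.0652). With all 6 libraries kept, weighting the libraries passed Per1, Per2, Per3 and Cry2, among 2244 of 13490 genes called. Those weights did not reach their convergence tolerance. They were 0.279, 0.367 and 5.52 in the 1.5 h libraries, by replicate number. The 1.5 h level thus rested mostly on replicate 3, which had about 13000000 reads, fewer than any 9.0 h library. Weights fitted gene by gene passed the 3 Period genes, among 579 genes called, and gave 1.5 h replicate 3 a weight of 2.25. Without 1.5 h replicate 3, the library with Y-linked reads, the log2 fold changes were 0.42, 0.38, 0.24, 0.40 and 0.05 for Per1, Per2, Per3, Cry2 and Cry1, with limma adjusted p of 0.524 to 0.958. Over all alternatives the limma adjusted p ranged from 0.000637 to 0.841 for Per1, 0.00251 to 0.924 for Per2, 0.00129 to 0.972 for Per3, 0.0204 to 0.888 for Cry2 and 0.495 to 0.999 for Cry1.

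**Figure D3:**
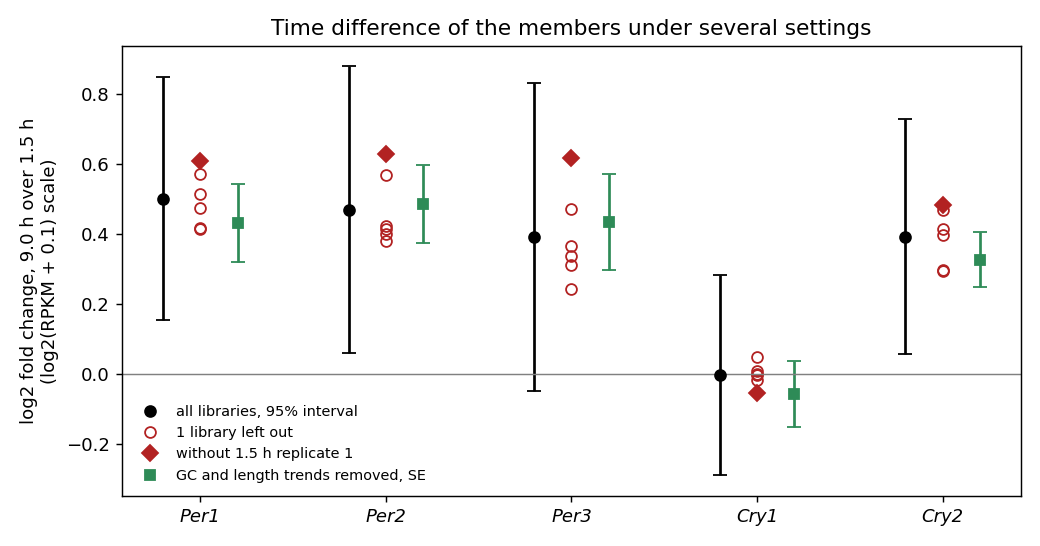
Log2 fold change at 9.0 h over 1.5 h (vertical axis) for each member: with all libraries and the 95% interval (black), with 1 library left out (red, the filled diamond being 1.5 h replicate 1) and with GC and length trends removed (green, SE). The point estimates of Per1, Per2, Per3 and Cry2 are above 0 in each of these, the interval of Per3 includes 0, and Cry1 lies on both sides of 0.

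The spread of some members within a time moved with a trend of the libraries in GC content, the share of G and C bases of a transcript. Per1 had 59.4% GC, more than 93.7% of tested genes, Cry2 55.6%, Per2 54.3%, Per3 52.4% and Cry1 51.6%. Over the 4459 tested genes of highest GC content, 53.3% to 73.1%, the median log2 deviation was 0.10, −0.16 and −0.08 in the 1.5 h libraries and 0.12, −0.06 and 0.09 at 9.0 h, and their median fold change was 0.10 against −0.10 for the 4460 genes of lowest GC. Removing each library's trend with GC and length, a step added after the data were seen, left log2 fold changes of 0.43 ± 0.11 for Per1, 0.48 ± 0.11 for Per2, 0.43 ± 0.14 for Per3, 0.33 ± 0.08 for Cry2 and −0.06 ± 0.09 for Cry1 (SE). After it Per2 and Per3 joined Per1 and Cry2 in not overlapping between the times, a pattern (higher at 9.0 h without overlap) that 12% of the 13378 genes with a GC value showed under the same step. The SD of Cry2 among libraries fell from 0.19 to 0.06 at 1.5 h and from 0.18 to 0.05 at 9.0 h on the log2 scale, that of Per1 from 0.16 to 0.04 at 9.0 h, while at 1.5 h Per1 had 0.20 both before and after. The SD of Cry1 rose instead, from 0.10 to 0.14 at 1.5 h and from 0.03 to 0.06 at 9.0 h. Limma adjusted p values were 0.137, 0.108, 0.187, 0.114 and 0.804 for Per1, Per2, Per3, Cry2 and Cry1, so none passed. With the trend removed, the ratios Per1 over Cry1, Per2 over Cry1 and Cry1 over Cry2 did not overlap between the times, at differences of 0.49, 0.54 and −0.38 (exact permutation p = 0.1 each, 0.333 adjusted over the 10 pairs).

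**Figure D4:**
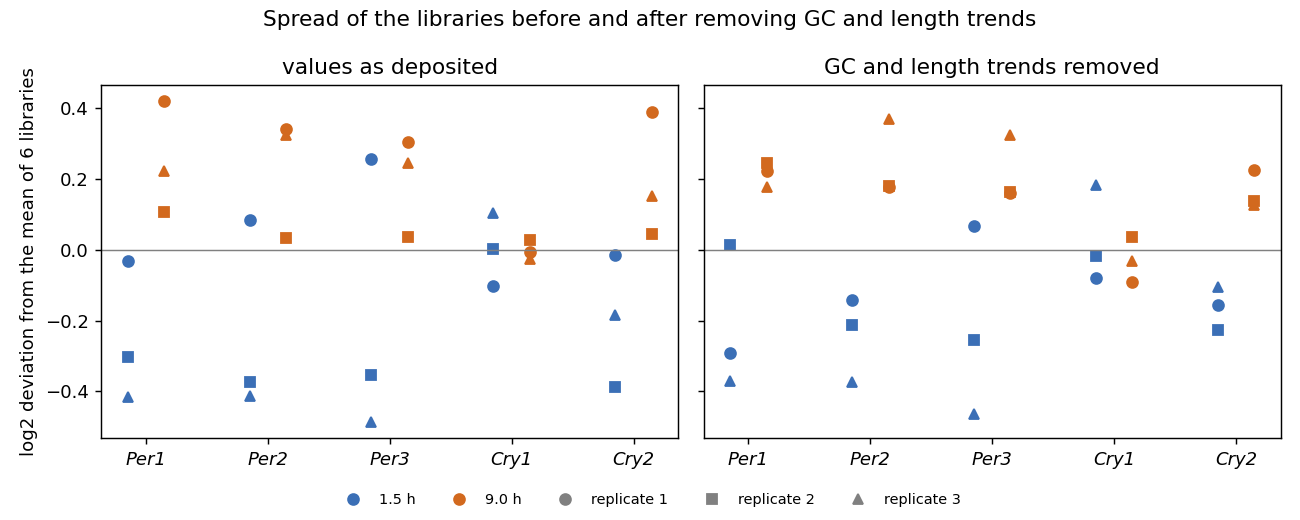
Log2 deviation of each member from its mean over 6 libraries (vertical axis) as deposited (left) and with GC and length trends removed (right), at 1.5 h (blue) and 9.0 h (orange), with marker shapes for the replicates. On the right the times separate for Per1, Per2, Per3 and Cry2 and not for Cry1.

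Other genes of the pathway gave the setting for these values. Beside them, the median log2 fold change of all tested genes was −0.003, with 49.4% above 0, and that of the 5 members was 0.39, with 4 above 0. Counts in the lists below stand beside these shares of all genes: 9.78% higher and 8.41% lower without overlap, and 6.47% higher and 4.58% lower at an unadjusted limma p of 0.05. The E-box activators, which drive the members, had 3 tested genes, all below 0 and none overlapping, with a median of −0.77. Npas2, the alternative partner of ARNTL, was called lower (−1.49 ± 0.20 SE, limma adjusted p = 0.0164), while Clock had −0.77 and Arntl −0.59. Other E-box outputs and repressors had 9 of 10 tested genes above 0 and a median of 0.52, with Dbp, a D-box activator, called higher at 1.57 and Ciart, listed as Gm129, a repressor of the CLOCK-ARNTL complex, at 1.26 (limma adjusted p = 0.0072 and 0.0152). Nr1d1 (REV-ERB alpha) had 0.75, Tef 0.59, Bhlhe40 0.49 and Hlf 0.19, none of them called. The members' values of 0.39 to 0.50, Cry1 aside, thus lay below those of Dbp, Ciart, Nr1d1 and Tef. They were near that of Bhlhe40 and above that of Hlf.

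Genes whose products act on PER and CRY proteins were tested as 2 lists, with no call in either. Of 14 kinases, phosphatases and turnover factors, none was called and 4 were above 0 (median −0.09). Among the most abundant were the casein kinase genes Csnk1a1 and Csnk2b, with −0.09 and 0.27, and the phosphatase genes Ppp1cb and Ppp5c, with −0.18 and −0.003. At an unadjusted limma p of 0.05, 1 of the 14 passed, Gsk3b at −0.37, a kinase gene named here after its value was seen. Of 14 partners of the PER complex, none was called (median −0.05). At an unadjusted limma p of 0.05, 3 passed: Nono at 0.31 and, named here after their values were seen, Timeless at 0.51 and Tnpo1 at −0.39. Over all genes, 6.47% passed that limit higher at 9.0 h and 4.58% lower. The RNA-binding proteins Ddx5, Nono and Sfpq had 0.09, 0.31 and −0.12, and Mta2, a chromatin remodelling subunit, 0.001.

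The pathways that reach the Period genes and Cry1 through elements other than the E-box were more mixed. Of 9 genes of the cAMP response (CREB) pathway, which acts on Per1 and Per2, Egr1, an immediate-early factor, was called higher (1.93 ± 0.20 SE, limma adjusted p = 0.00416), 5 were above 0 and the median was 0.13. Fos, a target of the same pathway, had 1.04 and was not called (limma adjusted p = 0.0622). The CREB coactivators Crtc1, Crtc2 and Crtc3 had 0.13, −0.12 and −0.04. At an unadjusted limma p of 0.05, 3 of the 9 passed: Egr1, Fos and, named here after its value was seen, Sik1 at 0.67. Without overlap, 2 of the 9 were higher at 9.0 h and 1 lower. The shares of all genes for both counts follow with the next list. Of the 6 nuclear receptor and repressor genes that act on Cry1, none was called by limma. At an unadjusted limma p of 0.05, 4 passed, beside 6.47% of all genes higher and 4.58% lower. All 6 differed without overlap, 2 higher and 4 lower at 9.0 h, beside 9.78% and 8.41% of all genes. The repressors Nr1d1 and Nr1d2 had 0.75 and 0.55, and the activators Rora and Rorb had −0.55 and −0.32, beside −0.003 for Cry1. Nr1d1 and Nr1d2 are the 2 higher genes and also count in the list of other E-box outputs, so the 2 lists are not separate.

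**Figure D5:**
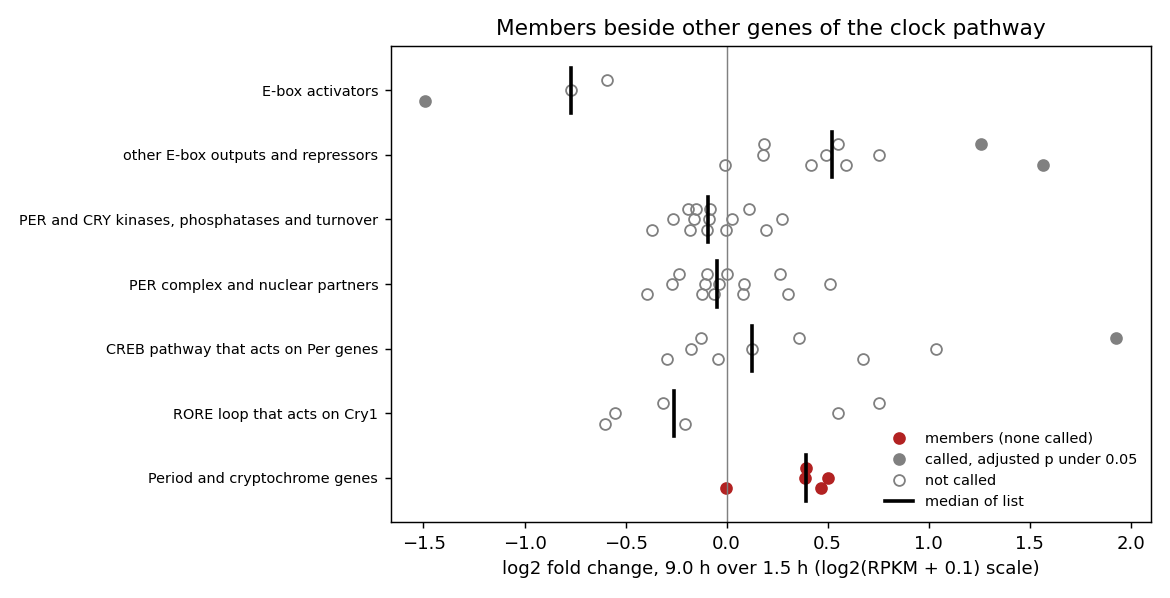
Log2 fold change at 9.0 h over 1.5 h (horizontal axis) of the members (red, none called) and of 6 groups of other clock genes (grey, filled where called), with the median of each group as a black bar. Cry1 lies at 0 and the other 4 members between 0.39 and 0.50, below the 2 called E-box outputs. Nr1d1 and Nr1d2 appear in 2 of the groups.

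By the likeness of whole profiles, measured as the root mean square difference of centred log2 values over the 6 libraries, Per2 was nearer to Per1 and Per3 than these were to each other, and Cry1 was farther from each of the 3 than any other member was. Among 12021 genes of at least 2 RPKM, Per2 was the 8th closest to Per1, Cry2 the 39th, Per3 the 137th and Cry1 the 5282nd. Seen from Per2, Per1 ranked 16 and Per3 20, and seen from Per3, Per2 ranked 17 and Per1 131. Closest to Per1 were Ahcy, Zkscan17, Myo1c and Man2b2 (0.0514 to 0.0738, against a median of 0.338 over all genes for Per1), and closest to Per2 were Plcd1, Phgdh, Gpank1 and 1110014N23Rik (0.0505 to 0.0603). Closest to Per3 were Cyb5rl, Gpr172b, Efcab4a and Polr1b (0.0439 to 0.0599), to Cry2 Ephb4, Mgrn1, Zkscan17 and B3gnt9-ps (0.0237 to 0.049), and to Cry1 Nt5c2, Sfmbt1, Cbln2 and Prdm16 (0.0371 to 0.0429). Ahcy has near-identical copies in the genome, so its value is uncertain. These are descriptions over 6 libraries that share their depth and GC trends.

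Tissue makeup was set beside the members through marker genes. The 6 striated muscle markers summed to 602 to 1105 RPKM at 1.5 h and 1165 to 1350 at 9.0 h, without overlap, and 1 of the 6, Tcap, was called. Singly, Tcap and Acta1 were higher at 9.0 h without overlap, a pattern that 9.78% of all tested genes shared. Tnnt3, Mylpf and Myh4 overlapped between the times. Ckm overlapped too and had the lower mean at 9.0 h, 157 against 179 RPKM. The 6 lens markers summed to 61639 to 85334 and 83314 to 98519 RPKM. The 6 rod markers summed to 11849 to 13257 and 11059 to 12178, the 5 pigment cell markers to 836 to 1214 and 786 to 921, and the 5 pigment epithelium markers to 677 to 1136 and 699.9 to 872. The 5 corneal epithelium markers had 3492 to 5026 and 3972 to 5077, the 5 markers of stroma and sclera 698 to 1461 and 1253 to 1602, the 5 markers of Mueller glia 1208 to 1638 and 1408 to 1445, and the 4 fat markers 5.63 to 29.4 and 9.79 to 19.9 RPKM. Apart from the 3 globin genes none of these markers was at 0 in every library. The muscle sum was lowest in 1.5 h replicate 1 at 602 RPKM. The part of tissue makeup in the members' values was not tested.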

How the data were processed

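Whole-eye poly(A) RNA of 6 libraries, each from pooled mice, was measured by RNA sequencing. The deposited tables give, per library, 1 RPKM value for each of 22692 symbols. GSNAP and HTSeq with build mm9 are named per the submitters' processing notes. Versions, annotation, strand setting and handling of multiply mapped reads were not given in the sources used here. The unit was taken from the values: in genes with 1 annotated transcript, 71.1% to 75.7% of low values fell within 0.1 read of whole multiples of 1 step, which also gave the total reads. Counting errors derived from these totals cover counting alone.

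The 13490 genes that reached 1 RPKM in 3 libraries entered the fit, 9.0 h minus 1.5 h, by limma 3.58.1 (R 4.3.3; trended, robust eBayes) of log2(RPKM + 0.1), a scale that understates changes of low genes. Calls used a Benjamini-Hochberg adjusted p of 0.05. The script was tested on simulated data. Pairs of members were compared by exact permutation in scipy 1.17.1. GC and length came from GENCODE M21 transcripts for 13378 tested genes (99.2%), and trends were removed with splines of 4 degrees of freedom. Named genes were the members, and from each pathway list every called gene and up to 4 others of highest mean RPKM, with exceptions said in the text, and the 4 closest profiles per member. The members and lists were chosen with earlier results of these data known. Alternatives were other pseudocounts, filters, scalings, weights and a replicate block, and leaving out each library.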

Additional observations from a re-analysis of the deposited data

How the results depend on the processing

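Per1, Per2, Per3 and Cry2 kept a positive difference in every alternative tried for them. Leaving out each library in turn gave log2 fold changes of 0.41 to 0.61 for Per1, 0.38 to 0.63 for Per2, 0.24 to 0.62 for Per3, 0.29 to 0.48 for Cry2 and −0.054 to 0.048 for Cry1, which was positive without 1.5 h replicate 3 (0.048) and without 9.0 h replicate 3 (0.0091). The number of genes called then ran from 2 to 1245, against 30. With library weights, Per1, Per2, Per3 and Cry2 passed at 0.63, 0.62, 0.64 and 0.37, but the weights did not reach their convergence tolerance and gave 1.5 h replicate 3 a weight of 5.52. Weights fitted gene by gene, added after the data were seen, passed Per1, Per2 and Per3 (0.59, 0.57 and 0.57). With GC and length trends removed and 1.5 h replicate 1 left out, Per2 and Per3 passed at 0.54 and 0.58, while Per1 (0.39) and Cry2 (0.33) did not. Without that library every 1.5 h library was shallower than every 9.0 h library, so time and depth cannot be told apart. Genes called numbered 2244 with weights, 579 with gene-by-gene weights, 15 after quantile normalization, 16 after upper-quartile scaling, 86 with GC and length trends removed and 563 with 1.5 h replicate 1 also left out. The replicate block gave 141 calls, and 32 with GC and length trends also removed. No member passed with the block, where limma adjusted p ran from 0.0949 (Per1) to 0.994 (Cry1). Deviations of same-numbered libraries correlated at 0.35, 0.48 and −0.21, and not every library correlated best with its own number, so the numbers were not treated as pairs.

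Small shifts of ratios changed sign. Per1 over Per2 was −0.018 without 1.5 h replicate 1 and −0.054 with GC and length removed, and Per1 over Per3 −0.0072 and −0.0024. Per2 over Cry2 was −0.0052 at a pseudocount of 1 and −0.018 without 1.5 h replicate 3. Per3 over Cry2 was 0.0018 at a pseudocount of 0.01, 0.11 with GC and length removed, 0.13 and 0.01 without 1.5 h replicates 1 and 2, and 0.04 and 0.002 without 9.0 h replicates 1 and 2. The cause of these changes was not tested. Ranges when 1 library was left out were −0.018 to 0.092 for Per1 over Per2, −0.0072 to 0.17 for Per1 over Per3, −0.018 to 0.15 for Per2 over Cry2 and −0.15 to 0.13 for Per3 over Cry2. The 4 ratios with Cry1 kept their sign: 0.37 to 0.66 for Per1, 0.33 to 0.68 for Per2 and 0.20 to 0.67 for Per3 over Cry1, and −0.54 to −0.30 for Cry1 over Cry2. Depth limits Per2 most, with counting errors of 7.32% and 7.33% in 1.5 h replicates 2 and 3.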
